A study of Mus musculus with 4 samples.

Results

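Hox genes are the positional genes of the body axis, and here they are followed, together with Tbx15 and Shox2, through single cells of a leg muscle and a trunk muscle. The members were all rows whose symbol is Hoxa, Hoxb, Hoxc or Hoxd with a number, which gave 39 Hox genes, plus Tbx15 and Shox2. They are 41 of the 32285 genes counted. They were chosen by symbol, and the set was proposed because earlier summaries of these UMI counts showed it to differ between quadriceps and diaphragm, so the values of that contrast are a description and carry no test. The libraries held mononuclear cells of mice aged 14 weeks: quadriceps and diaphragm of mdx5cv mice, a dystrophin-deficient strain used as a model of Duchenne muscular dystrophy, and the same muscles of mdx5cv/Ccr2-/- mice, which also lack the chemokine receptor Ccr2. All 4 groups therefore carry the mdx5cv mutation, and healthy muscle was not analysed here. There was 1 library per group, and how many animals went into each is not stated by the labels.

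The mouse has 4 Hox clusters, on chromosomes 6 (Hoxa), 11 (Hoxb), 15 (Hoxc) and 2 (Hoxd). Genes of the same number in different clusters are paralogs, and within a cluster the order along the chromosome matches the order of expression along the body: low numbers reach far forward, high numbers are restricted to the rear and to the limbs. The proteins are homeodomain transcription factors that bind DNA with PBX and MEIS partners, and Polycomb and trithorax proteins keep each gene's state through cell division. Fibroblasts of adult tissue are known to keep a Hox pattern that reflects where they arose. Tbx15 is a T-box factor and Shox2 a homeobox factor, and both act in limb skeleton and muscle. In the text, paralog groups 1 to 3 are called anterior, 4 to 8 central and 9 to 13 posterior.

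The promoters below are shown because these genes stand at the ends of the muscle contrast. Hoxa2 and Hoxb4 were higher in the diaphragm, and Hoxa9, Hoxa10 and Shox2 in the quadriceps. Hoxa10 has a second RefSeq window, not shown. Each run is the 250 bases before an annotated RefSeq start (GRCm38.p6), 5′ to 3′ on the gene's strand, and capitals mark any match to TAATTA (homeodomain core), TGATNNAT (HOX-PBX), TGACAG (MEIS) or TATAAA on either strand. They lie at chr6:52164832-52165081 (Hoxa2, minus strand), chr11:96318017-96318266 (Hoxb4, plus), chr6:52227371-52227620 (Hoxa9, minus), chr6:52240855-52241104 (Hoxa10, minus) and chr3:66981772-66982021 (Shox2, minus).
Hoxa2: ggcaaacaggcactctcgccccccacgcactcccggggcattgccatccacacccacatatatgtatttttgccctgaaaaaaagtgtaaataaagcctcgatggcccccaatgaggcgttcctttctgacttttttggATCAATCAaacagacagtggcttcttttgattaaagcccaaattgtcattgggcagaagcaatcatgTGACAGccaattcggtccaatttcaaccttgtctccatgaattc
Hoxb4: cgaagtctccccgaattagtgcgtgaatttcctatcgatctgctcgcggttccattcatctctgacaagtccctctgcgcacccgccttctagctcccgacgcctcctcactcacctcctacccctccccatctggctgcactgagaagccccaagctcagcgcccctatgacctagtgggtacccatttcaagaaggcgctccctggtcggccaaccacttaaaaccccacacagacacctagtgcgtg
Hoxa9: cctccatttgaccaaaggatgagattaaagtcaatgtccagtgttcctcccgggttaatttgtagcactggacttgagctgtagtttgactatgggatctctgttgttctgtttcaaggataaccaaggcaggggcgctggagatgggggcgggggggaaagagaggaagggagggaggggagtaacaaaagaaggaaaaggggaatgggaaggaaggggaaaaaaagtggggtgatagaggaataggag
Hoxa10: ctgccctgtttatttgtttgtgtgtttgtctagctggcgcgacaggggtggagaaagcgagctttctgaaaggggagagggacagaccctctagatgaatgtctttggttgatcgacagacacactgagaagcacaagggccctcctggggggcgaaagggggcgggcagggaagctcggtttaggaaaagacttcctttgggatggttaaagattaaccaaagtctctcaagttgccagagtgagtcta
Shox2: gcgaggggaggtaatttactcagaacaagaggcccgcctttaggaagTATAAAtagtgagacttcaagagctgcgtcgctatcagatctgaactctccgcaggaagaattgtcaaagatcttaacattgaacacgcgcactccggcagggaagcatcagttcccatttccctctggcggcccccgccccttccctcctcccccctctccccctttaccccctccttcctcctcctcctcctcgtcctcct
The Hoxa2 window held 1 match to TGATNNAT and 1 to TGACAG, the Shox2 window 1 to TATAAA, and the other 3 windows none of the 4 motifs. Among 32851 promoter windows of this length, TGATNNAT was found in 7.68%, TGACAG in 15.9%, TATAAA in 12.4% and TAATTA in 4.84%. RefSeq windows were held for 23 members, with 25 windows in all, of which 4, 2, 5 and 2 had those motifs.

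The libraries held 5839 to 13175 barcodes and 56399477 to 92189580 UMIs, and 28569 cells remained after filtering. Pairs of libraries shared 7 to 19 cell barcodes. Cells were assigned to a class when they had UMIs of at least 3 of its marker genes and of fewer than 3 markers of every other class, except that FAP markers were disregarded when gating tendon and mesothelial cells. FAP/fibroblast-like cells (fibro-adipogenic progenitors and fibroblasts, the matrix producers of muscle) numbered 843 in the mdx5cv quadriceps, 5654 in the mdx5cv diaphragm, 844 in the mdx5cv/Ccr2-/- quadriceps and 2960 in the mdx5cv/Ccr2-/- diaphragm. Groups of 4 values follow this order throughout. Their median depths were 12576, 6190.5, 11669.5 and 9842.5 UMIs. Their least detected marker, Pi16, was found in 31.2%, 73.5%, 33.6% and 83.0% of them, so the cells compared also differed in this marker. Mesothelial markers summed to 2.25, 0.974, 2.27 and 0.0624 CPM in them. Levels are CPM, the UMIs of a gene scaled to a common total, for a class in a library. Intervals are 95% and cover counting error only, not the spread between animals or dissections, and no p-value is given: each group has 1 library, and the members were proposed with the muscle contrast known.

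Of the 41 members, 31 had at least 50 UMIs over all cells, 6 had between 2 and 29 (Hoxd11, Hoxd10, Hoxd1, Hoxa11, Hoxb1 and Hoxc13), and Hoxd12, Hoxa13, Hoxb13 and Hoxc12 had 0. In FAP/fibroblast-like cells 29 members reached 50 UMIs. Of these, 14 were at least 2-fold higher in the diaphragm in both genotypes, where 2.54% of all 13531 measured genes were, and 9 were at least 2-fold higher in the quadriceps in both, where 2.39% were, or 4.93% in either direction. The remaining 6, among them Hoxa6, Hoxa7, Hoxc4, Hoxc5 and Hoxd8, met neither. A member that is high in 1 muscle alone passes the minimum through that muscle, and the rule used this contrast, so nothing is read from these shares. The count higher in the diaphragm was 9 with UMIs per cell in place of CPM, and 8 with 5 CPM added in place of 0.5. The members' median log2 ratio, diaphragm over quadriceps, was 1.08 in mdx5cv and 1.17 in mdx5cv/Ccr2-/-, against −0.04 and −0.06 over all measured genes.

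**Figure D1:**
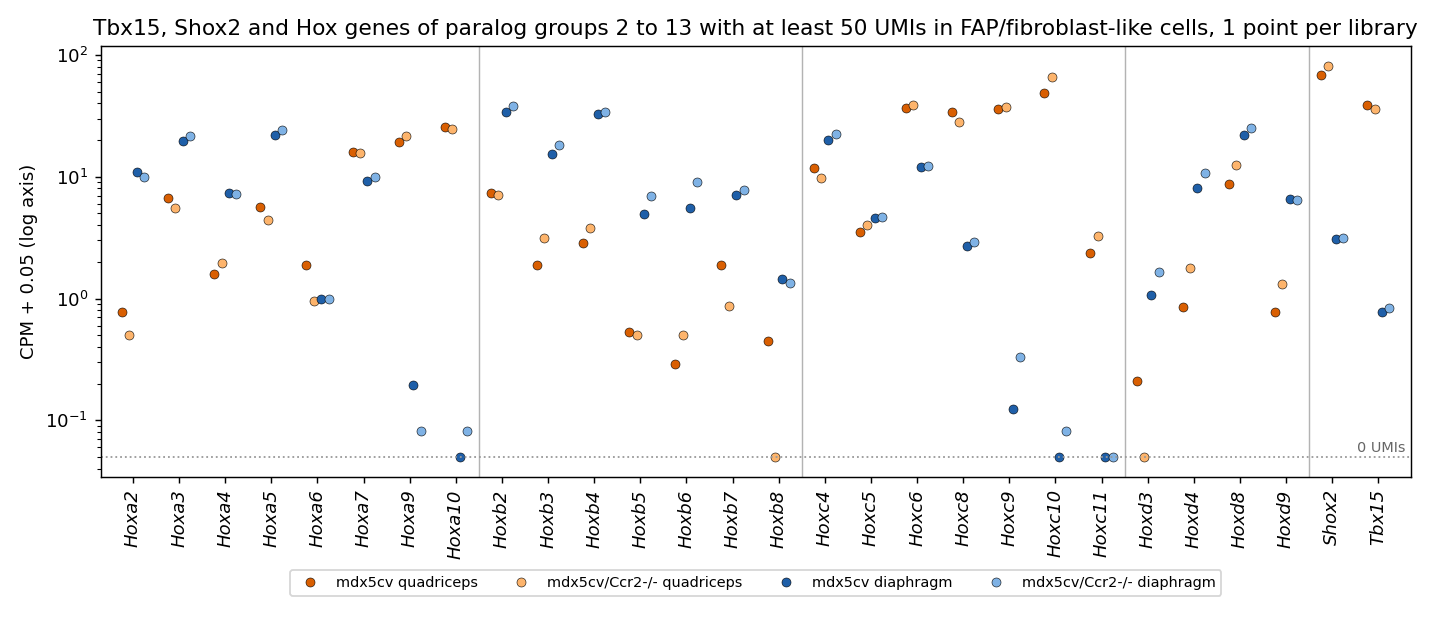
Level of Tbx15, Shox2 and the Hox genes of paralog groups 2 to 13 with at least 50 UMIs in FAP/fibroblast-like cells. The vertical axis is CPM with 0.05 added, on a log scale, each point is 1 library, grey lines separate the Hox clusters, and the dotted line is 0 UMIs. Quadriceps points lie above diaphragm points for Hoxa7, Hoxa9, Hoxa10, Hoxc6, Hoxc8 to Hoxc11, Shox2 and Tbx15, and below them for Hoxb2 to Hoxb8.

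The posterior genes of the Hoxa and Hoxc clusters marked the quadriceps. Hoxc10, which acts in the hindlimb and the lumbar region, had 605, 0, 726 and 1 UMIs, or 48.6, 0, 66.0 and 0.0312 CPM. Both quadriceps libraries were high and the diaphragm libraries had 1 UMI together. In mdx5cv Hoxc10 was at least 666-fold lower in the diaphragm, with the floor at 3 counts per library, and in mdx5cv/Ccr2-/- the ratio of diaphragm to quadriceps was 0.000472 (1.19e-05 to 0.00264). Hoxc9 stood at 35.9, 0.0730, 37.4 and 0.281 CPM, from 446, 3, 411 and 9 UMIs. Its ratios were 0.00204 (0.000418 to 0.00599) and 0.00751 (0.00341 to 0.0144).

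Hoxa10, a patterning gene of the proximal limb, had 25.5, 0, 24.7 and 0.0312 CPM, from 317, 0, 272 and 1 UMIs. Hoxa9, its neighbour in the cluster, had 19.3, 0.146, 21.7 and 0.0312 CPM, from 240, 6, 239 and 1 UMIs. The diaphragm libraries were thus at or near 0 for both, and the quadriceps libraries lay close together. Hoxc11 was a weaker member of the same kind, with 29, 0, 35 and 0 UMIs. It was at least 31.9-fold and 34.0-fold lower in the diaphragm. Hoxd13, which patterns the hand and foot, had 11, 0, 16 and 0 UMIs, too few for the count of measured members.

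Hoxc8 and Hoxc6, central genes next to this block, went the same way less far. Hoxc8 stood at 33.7, 2.65, 28.2 and 2.84 CPM, with ratios of 0.0788 (0.0632 to 0.0975) and 0.101 (0.0788 to 0.128). Hoxc6 stood at 36.7, 12, 38.8 and 12.3 CPM, with ratios of 0.327 (0.288 to 0.373) and 0.318 (0.277 to 0.365). Within the Hoxc cluster the ratio therefore went from 1.70 and 2.32 at Hoxc4 and 1.31 and 1.15 at Hoxc5 to 0 and 0.000472 at Hoxc10. Reads of Hoxc5 and Hoxc10 cannot be fully told apart, because exons of these genes overlap on the same strand in GENCODE M21.

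The limb factors Shox2 and Tbx15 stood with the posterior genes. Shox2 had 67.9, 3.04, 81.7 and 3.06 CPM, from 844, 125, 898 and 98 UMIs. Its diaphragm values were 0.0448 (0.0369 to 0.0542) and 0.0374 (0.0301 to 0.0461) of the quadriceps values. Tbx15 had 38.8, 0.730, 35.6 and 0.779 CPM, from 482, 30, 392 and 25 UMIs, with ratios of 0.0188 (0.0126 to 0.0273) and 0.0219 (0.0140 to 0.0328). Ranked by the smaller of the log2 ratios of the genotypes, the 6 genes most in favour of the quadriceps among 13531 were Hoxc10, Hoxc9, Hoxa10, Hoxa9, Tbx15 and Shox2. In the other direction the first 5 were Wt1, Gata4, Col6a5, Ptgis and Pdlim3, and the first member was Hoxa2, at rank 11.

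Anterior genes and the Hoxb cluster marked the diaphragm. Hoxa2, a gene of the hindbrain and neck level, had 0.724, 10.9, 0.455 and 9.88 CPM, from 9, 449, 5 and 317 UMIs. Both diaphragm libraries were high, with ratios of 15.1 (7.89 to 33.3) and 21.7 (9.22 to 67.4). Hoxb6 had 0.241, 5.53, 0.455 and 8.95 CPM, with ratios of 22.9 (7.74 to 112) and 19.7 (8.34 to 61.1) that rest on 3 and 5 quadriceps UMIs. Hoxb4, expressed from the neck level backward, had 2.81, 32.7, 3.73 and 33.7 CPM, from 35, 1342, 41 and 1081 UMIs. Its ratios were 11.6 (8.31 to 16.7) and 9.04 (6.62 to 12.7).

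The other Hoxb genes lay in the same direction. Hoxb2 had 7.32, 34.2, 7.09 and 38.2 CPM, with ratios of 4.67 (3.78 to 5.84) and 5.38 (4.28 to 6.85). Hoxb3 had 1.85, 15.2, 3.09 and 18.3 CPM, and Hoxb5 0.482, 4.87, 0.455 and 6.89 CPM. In these genes no quadriceps library reached a diaphragm library. Hoxb7 had ratios of 3.80 (2.49 to 6.1) and 9.41 (4.88 to 20.8). Hoxb8 had 5, 58, 0 and 41 UMIs, a ratio of 3.51 (1.42 to 11.2) in mdx5cv and at least 4.69-fold more in the diaphragm in mdx5cv/Ccr2-/-. In the Hoxa cluster, Hoxa3, Hoxa4 and Hoxa5 had ratios of 2.95, 4.73 and 3.88 in mdx5cv and 3.98, 3.72 and 5.54 in mdx5cv/Ccr2-/-.

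Near the middle of the Hoxa cluster the muscles differed less. Hoxa7 had 15.8, 9.23, 15.6 and 9.85 CPM, with ratios of 0.585 (0.491 to 0.699) and 0.630 (0.522 to 0.763), both quadriceps libraries being higher. Hoxa6 had 23, 39, 10 and 30 UMIs, with ratios of 0.513 (0.299 to 0.900) and 1.03 (0.489 to 2.36), of which the second interval includes 1.

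The Hoxd cluster did not divide at the same place. Hoxd8 had 8.68, 22.0, 12.5 and 25.1 CPM, with ratios of 2.53 (2.07 to 3.12) and 2.00 (1.67 to 2.41), and just missed the 2-fold call once 0.5 CPM was added. Hoxd3 had 2, 42, 0 and 51 UMIs. Hoxd4 had 0.804, 8.06, 1.73 and 10.7 CPM, and its ratios were 10.0 (5.38 to 21.1) and 6.21 (3.91 to 10.4). Exons of Hoxd4 and Hoxd3 overlap on the same strand, so these counts are uncertain between them. Hoxd9 belongs to the posterior paralogs and was nevertheless higher in the diaphragm, at 0.724, 6.48, 1.27 and 6.36 CPM. Its ratios were 8.95 (4.64 to 19.8) and 5.00 (2.91 to 9.30). Its paralogs Hoxa9 and Hoxc9 went the opposite way in the same cells.

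Summed over paralog groups, anterior genes stood at 17.3, 81.9, 16.5 and 90.5 CPM and posterior genes at 133, 6.74, 156 and 6.80 CPM. The anterior ratios were 4.74 (4.13 to 5.47) and 5.47 (4.71 to 6.39), and the posterior ratios 0.0505 (0.0443 to 0.0574) and 0.0436 (0.0377 to 0.0502). Of the posterior UMIs in the diaphragm, 266 of 277 and 204 of 218 were Hoxd9. The central sum mixes genes of both directions, at 126, 160.0, 123 and 179 CPM. Its ratio was 1.27 (1.21 to 1.35) in mdx5cv, where it turned to 0.627 with UMIs per cell in place of CPM, and 1.45 (1.37 to 1.54) in mdx5cv/Ccr2-/-.

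**Figure D2:**
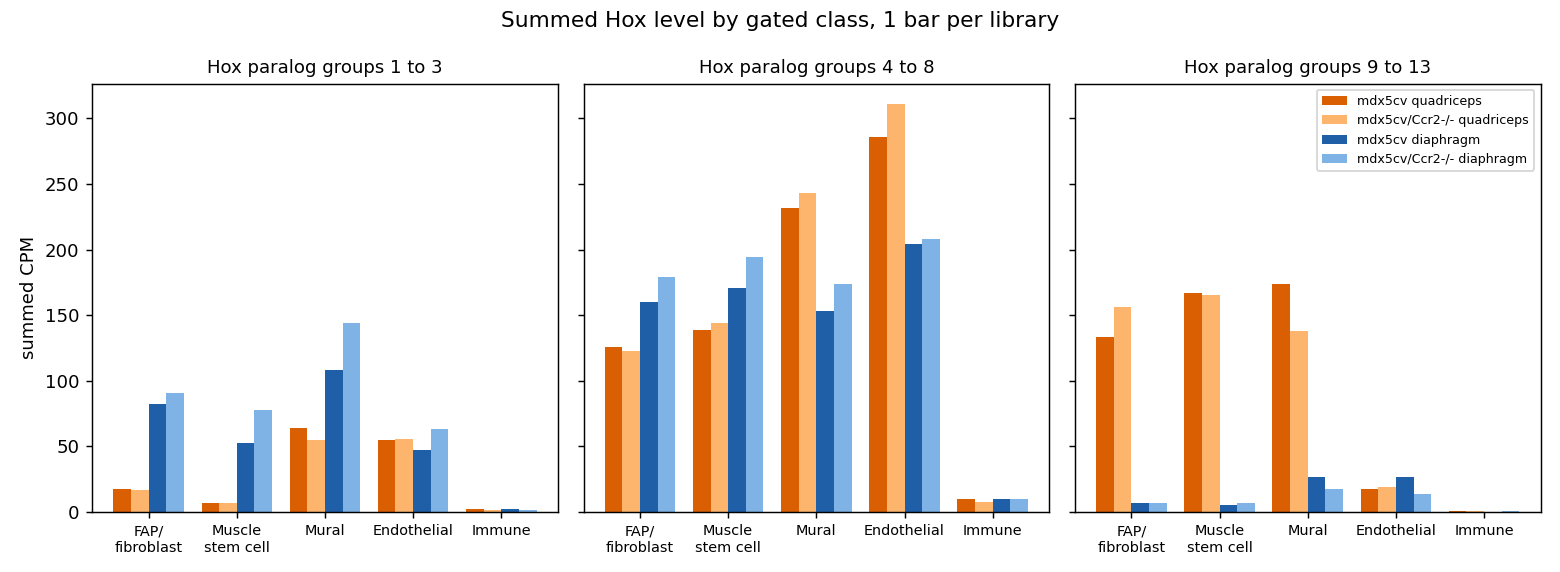
Summed CPM of Hox paralog groups 1 to 3, 4 to 8 and 9 to 13 by gated class, with 1 bar per library. In FAP/fibroblast-like cells the posterior sum was 133 and 156 CPM in the quadriceps and 6.74 and 6.80 CPM in the diaphragm. Endothelial-like cells had 13.8 to 26.9 CPM in all 4 libraries. Their ratios of diaphragm to quadriceps lay in opposite directions, 1.58 (1.17 to 2.12) in mdx5cv and 0.716 (0.524 to 0.964) in mdx5cv/Ccr2-/-.

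The pattern was also seen as shares of cells at equal depth. When every cell was reduced to 3000 UMIs, the expected share of FAP/fibroblast-like cells with a posterior Hox UMI was 34.1%, 2.07%, 37.0% and 2.02%. An anterior UMI was expected in 5.32%, 21.6%, 4.73% and 23.5%. Both quadriceps libraries lay above both diaphragm libraries for posterior genes and below them for anterior genes. These values rest on 790, 5030, 782 and 2822 cells, since 53, 624, 62 and 138 shallower cells were left out. Without reduction the posterior shares were 74.5%, 4.37%, 73.2% and 6.32%. In immune-like cells the posterior share at equal depth was 0.252%, 0.0422%, 0.353% and 0.273%. Their median depths were 10311, 5755.5, 9539 and 7910 UMIs. Free RNA in droplets was not measured, and its part in any of these shares was not tested.

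**Figure D3:**
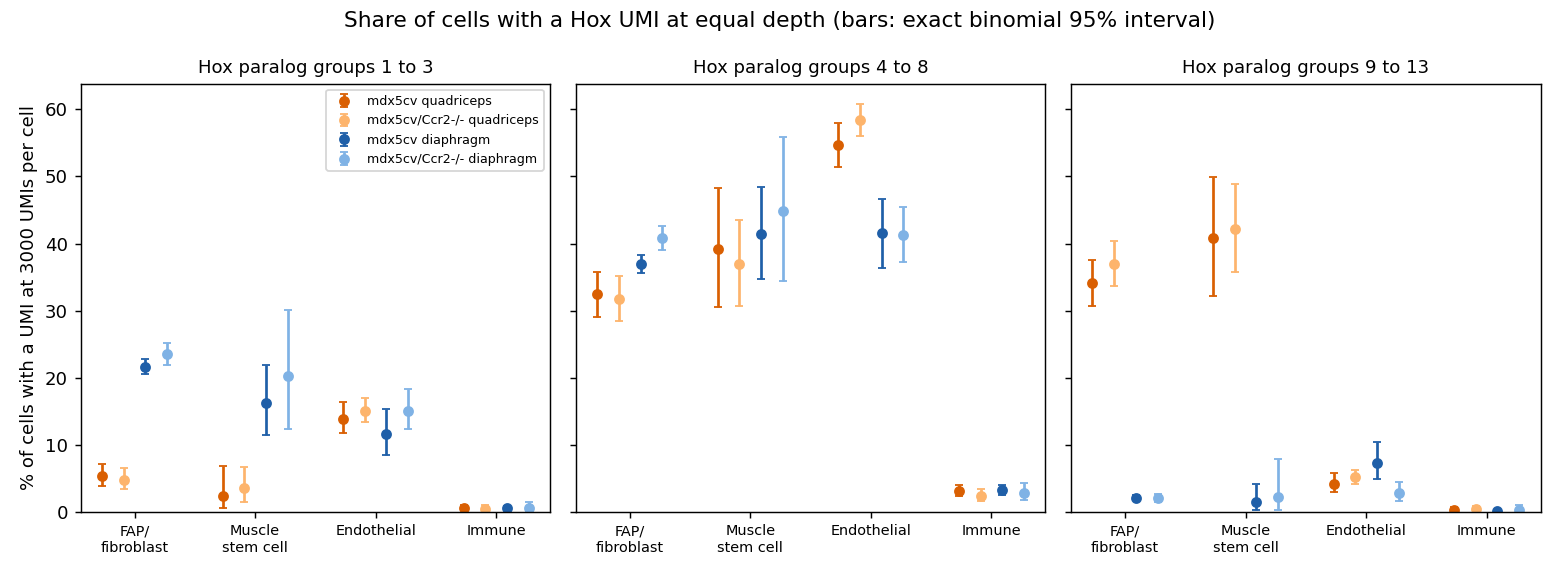
Expected share of cells with a UMI of each Hox paralog group when every cell is reduced to 3000 UMIs, by gated class. Points are libraries and bars are exact binomial 95% intervals. For paralog groups 9 to 13, quadriceps FAP/fibroblast-like cells sat at 34.1% and 37.0% and diaphragm cells at 2.07% and 2.02%.

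Some quadriceps cells held UMIs both of posterior genes and of the Hoxb genes that were higher in the diaphragm. Of 843 and 844 FAP/fibroblast-like cells, 12.8% and 12.3% had a UMI of Hoxb2 to Hoxb6, and 10.4% and 9.83% had one of these and one of Hoxa9, Hoxa10, Hoxc9, Hoxc10 or Hoxc11. These sets were chosen after the levels had been seen. In the diaphragm 2 of 5654 and 5 of 2960 cells had both.

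The rule did not use genotype. In FAP/fibroblast-like cells, with 0.5 CPM added, 0 of 29 measured members differed at least 2-fold between mdx5cv/Ccr2-/- and mdx5cv in the quadriceps, where 3.25% of measured genes did, and 0 of 29 in the diaphragm, where 0.554% did. At these background shares a count of 0 says little about the members. Without the added 0.5 CPM, several low members in the quadriceps passed 2-fold. Hoxd4 at 2.15 (0.951 to 5.17) and Hoxa6 at 0.492 (0.209 to 1.07) had intervals that include 1. Hoxb7 was more than 2-fold lower in mdx5cv/Ccr2-/-, with an interval that just excludes 1, and was found in 20 of 843 and 7 of 844 cells. Hoxb8 and Hoxd3, in 3 and 2 cells of the mdx5cv quadriceps, had 0 in the mdx5cv/Ccr2-/- quadriceps. The posterior sum was 1.17 times (1.09 to 1.25) the mdx5cv value in the mdx5cv/Ccr2-/- quadriceps and 1.01 times (0.840 to 1.21) in the diaphragm. The central sum was 0.982 times (0.912 to 1.06) and 1.12 times (1.08 to 1.16). Hoxc10 was 1.36 times (1.22 to 1.51) as high in the mdx5cv/Ccr2-/- quadriceps. Whether such differences exceed the spread between animals cannot be told with 1 library per group.

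Muscle stem cell-like cells, the Pax7-bearing precursors of fibres, numbered 137, 237, 264 and 100. They descend from somites, whereas the connective tissue of limb muscle comes from lateral plate mesoderm. Of 14 measured members, 5 were at least 2-fold higher in the diaphragm in both genotypes, where 0.415% of measured genes were, and 5 at least 2-fold higher in the quadriceps, where 0.875% were. Here too a member high in 1 muscle alone passes the minimum through that muscle, and the rule used this contrast. Nothing is read from these shares. Hoxc10 had 77, 0, 137 and 0 UMIs, and was at least 40.4-fold and 17.6-fold lower in the diaphragm. Hoxc9 had 79, 8, 152 and 4 UMIs, with ratios of 0.0643 (0.0268 to 0.133) and 0.0684 (0.0184 to 0.179). Quadriceps cells again held the posterior genes.

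Hoxb2 to Hoxb6, anterior and central genes, were nearly undetected in quadriceps stem cell-like cells. Hoxb2 had 0, 53, 0 and 38 UMIs, at least 11.2-fold and 32.9-fold higher in the diaphragm. Hoxb4 had 0, 57, 1 and 28 UMIs. A UMI of Hoxb2 to Hoxb6 was found in 0 of 137 and 1 of 264 quadriceps cells and in 38.8% and 56.0% of diaphragm cells. In quadriceps FAP/fibroblast-like cells, which were deeper (median 12576 and 11669.5 against 6536 and 6330.5 UMIs), that share was 12.8% and 12.3%. Summed FAP markers in stem cell-like cells were 179, 208, 157 and 267 CPM, against 13937, 25314, 13476 and 26349 CPM in FAP/fibroblast-like cells, while Hoxb4 in the diaphragm was 25.8 and 27.2 CPM against 32.7 and 33.7.

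Shox2 went the other way in muscle stem cell-like cells than in FAP/fibroblast-like cells. It had 0, 78, 1 and 27 UMIs, or 0, 35.4, 0.373 and 26.2 CPM. Both diaphragm libraries were high, at least 16.5-fold above the quadriceps in mdx5cv and with a ratio of 70.2 (11.6 to 2873) in mdx5cv/Ccr2-/-. Shox2 was thus high in quadriceps FAPs and in diaphragm stem cells, and low in diaphragm FAPs and quadriceps stem cells. Tbx15 in stem cell-like cells had 9.28, 14.5, 7.47 and 13.6 CPM, and its ratios of 1.56 (0.798 to 3.24) and 1.82 (0.850 to 3.79) had intervals that include 1.

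**Figure D4:**
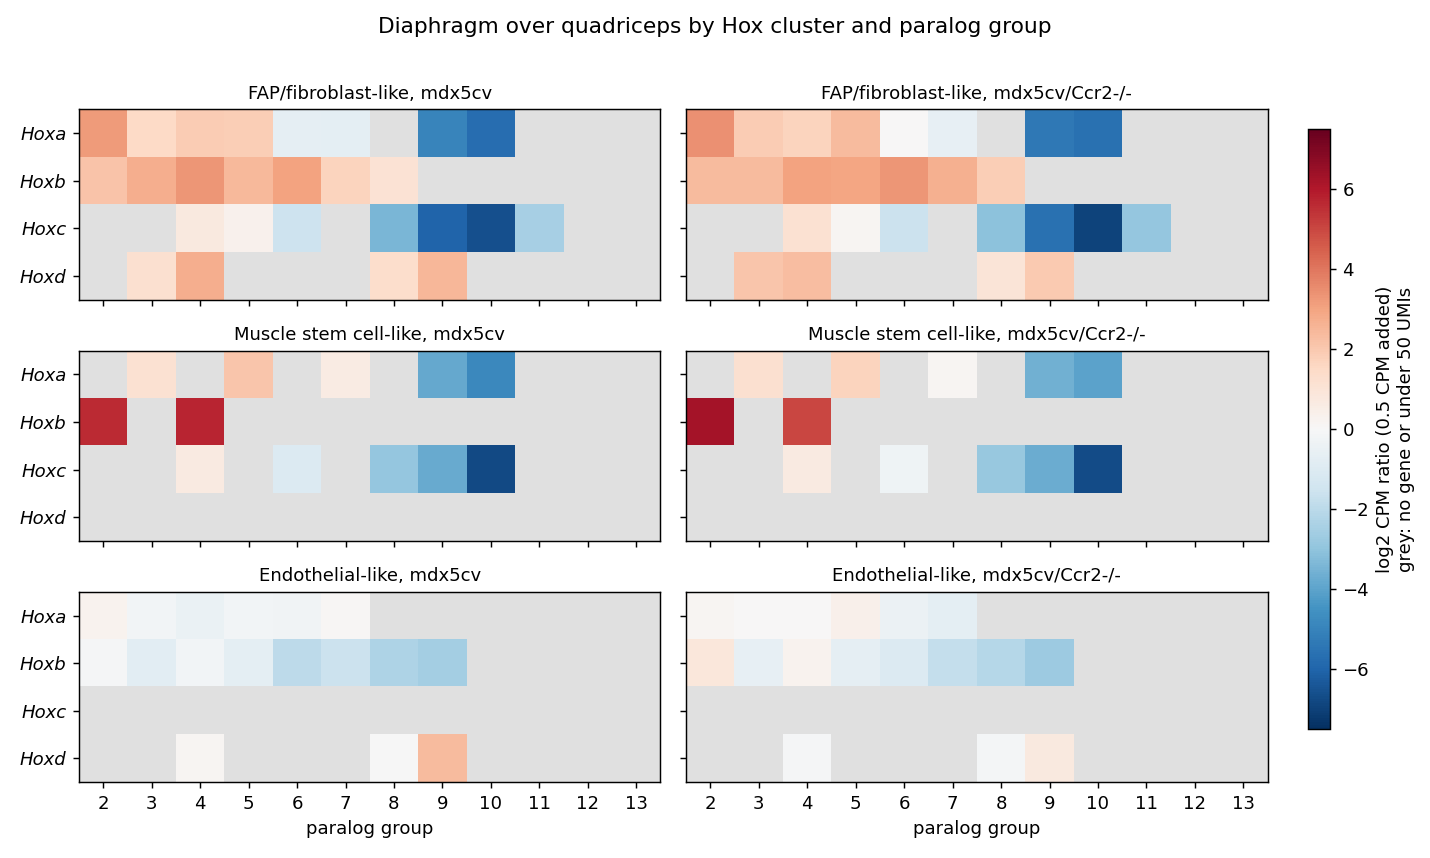
Log2 ratio of diaphragm to quadriceps CPM, with 0.5 CPM added, for each Hox cluster (vertical) and paralog groups 2 to 13 (horizontal), in FAP/fibroblast-like, muscle stem cell-like and endothelial-like cells of each genotype. Red is higher in the diaphragm, blue is higher in the quadriceps, and grey marks positions with no gene or under 50 UMIs in the class. Hoxb6 to Hoxb8 are red in FAP/fibroblast-like and blue in endothelial-like cells.

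Mural-like cells (pericytes and smooth muscle) numbered 155, 67, 296 and 73. They had ratios on the same side as FAP/fibroblast-like cells for the posterior and anterior sums, but not for the central sum. Their central sums were 232, 153, 243 and 174 CPM, with ratios of 0.661 (0.461 to 0.927) and 0.714 (0.560 to 0.903), against 1.27 and 1.45 in FAP/fibroblast-like cells. Their anterior sums were 64.1, 108, 55.0 and 144 CPM, with ratios of 1.69 (1.04 to 2.69) and 2.62 (1.89 to 3.63), and their posterior sums 174, 26.2, 138 and 17.6 CPM, with ratios of 0.150 (0.0593 to 0.316) and 0.128 (0.0576 to 0.247). Hoxa10 had 39, 0, 63 and 0 UMIs, Hoxa9 49, 0, 54 and 0, and Hoxc10 41, 0, 49 and 0. The quadriceps libraries held all of these UMIs. Of 12 measured members 7 were at least 2-fold higher in the quadriceps in both genotypes, where 2.64% of genes were, and 2 in the diaphragm, where 0.941% were. Members such as Hoxa10 pass the minimum through the quadriceps alone, and the rule used this contrast, so nothing is read from these shares. Among the 7 was Hoxc4, whose ratios in FAP/fibroblast-like cells, 1.70 and 2.32, lay on the diaphragm side. In mural-like cells Hoxc4 was found in 13 of 155, 0 of 67, 30 of 296 and 4 of 73 cells, so its direction there rests on few cells. Shox2 had 57, 1, 84 and 14 UMIs, with ratios of 0.0594 (0.00148 to 0.344) and 0.496 (0.260 to 0.88).

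Cells gated on tendon markers (336, 751, 813 and 932) repeated the FAP pattern, with posterior sums of 158, 6.89, 164 and 6.43 CPM. Of 24 measured members 11 were at least 2-fold higher in the diaphragm (2.29% of genes) and 8 in the quadriceps (3.52%), against 5.81% of genes in either direction. For the same reasons as in FAP/fibroblast-like cells, nothing is read from these shares. Between genotypes 0 of the 24 differed at least 2-fold in the quadriceps, where 3.42% of genes did. In the diaphragm 2 did, where 1.13% of genes did: Hoxb6 was 2.20 times (1.52 to 3.24) and Hoxc8 0.395 times (0.206 to 0.739) the mdx5cv value. Of these cells, 26.5%, 69.6%, 36.7% and 54.6% held exactly the 3 markers the gate requires. Their FAP markers summed to 10999, 25994, 9463 and 24924 CPM, close to FAP/fibroblast-like cells, so they are not read as a separate cell type. Their tendon markers summed to 12875, 5854, 8088 and 6276 CPM, against 1456, 2242, 2150.2 and 2496 in FAP/fibroblast-like cells. The tendon marker Scx was found in 52.1%, 14.9%, 44.0% and 20.5% of them, so the cells compared between muscles also differed in tendon markers.

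Endothelial-like cells, which numbered 1346, 916, 2301 and 857, carried another Hox set. They held central Hoxb and Hoxa genes in both muscles, with Hoxa7 at 49.8, 52.8, 64.9 and 38.3 CPM, and almost no Hoxc gene. At equal depth Hoxc10 was expected in 1 of 905, 0 of 371, 2 of 1729 and 0 of 583 cells. Of 17 measured members 0 were at least 2-fold higher in the diaphragm in both genotypes, where 2.11% of genes were. The 4 that were at least 2-fold higher in the quadriceps in both, where 0.532% of genes were, were the neighbours Hoxb6, Hoxb7, Hoxb8 and Hoxb9. A member high in 1 muscle alone passes the minimum through that muscle, so nothing is read from these shares. The makeup of this class differed between muscles: cells with a UMI of the lymphatic genes Prox1 or Mmrn1 numbered 16, 233, 47 and 102. Of the 4 genes only Hoxb9 was counted apart from these cells, and outside them it had 10.5, 1.91, 9.30 and 1.14 CPM. Hoxb6, Hoxb7 and Hoxb8 were not split this way.

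The ratio was lowest at the posterior end of the Hoxb cluster, though it did not follow gene order throughout. Hoxb9 had 10.3, 1.38, 9.28 and 1.0 CPM, from 72, 4, 113 and 4 UMIs, with ratios of 0.134 (0.0356 to 0.359) and 0.108 (0.0289 to 0.284). Hoxb8 had 22.7, 4.14, 24.7 and 5.25 CPM, with ratios of 0.182 (0.0922 to 0.327) and 0.213 (0.130 to 0.331). Hoxb7 had 51.2, 16.6, 61.6 and 17.5 CPM, with ratios of 0.324 (0.234 to 0.439) and 0.284 (0.219 to 0.364). Hoxb6, Hoxb5 and Hoxb3 had ratios of 0.236, 0.582 and 0.570 in mdx5cv and 0.478, 0.607 and 0.643 in mdx5cv/Ccr2-/-. Hoxb4, which lies between the last pair, had 33.5, 29, 31.6 and 38.3 CPM, with ratios of 0.867 (0.667 to 1.12) and 1.21 (0.997 to 1.46). Summed FAP markers in endothelial-like cells were 62.2, 186, 65.0 and 178 CPM.

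Hoxd10 was confined, in endothelial-like cells, to those with a UMI of the lymphatic genes Prox1 or Mmrn1: all 20 of its UMIs lay there, in 16, 233, 47 and 102 such cells. Over all endothelial-like cells the Hoxd9 ratios were 5.61 (3.55 to 9.07) and 1.75 (1.17 to 2.60). The levels inside and outside this subset lay in opposite directions, but no interval was computed for them. Inside it, Hoxd9 had 3, 64, 11 and 36 UMIs, or 28.4, 80.1, 44.2 and 73.6 CPM, higher in both diaphragm libraries. The quadriceps values inside the subset rest on only 3 and 11 UMIs, so the direction there is uncertain. Outside it, Hoxd9 had 25, 1, 62 and 6 UMIs, or 3.63, 0.477, 5.20 and 1.71 CPM, higher in both quadriceps libraries. This subset was 1 of 5 tried after the data had been seen. In the diaphragm, Hoxd9 in the mdx5cv/Ccr2-/- library was 0.468 times (0.310 to 0.70) its mdx5cv value in endothelial-like cells, the only 1 of 17 measured members at least 2-fold apart between genotypes there, where 3.58% of genes were. Within the subset the diaphragm levels were 80.1 CPM in mdx5cv and 73.6 in mdx5cv/Ccr2-/-. Outside it they were 0.477 and 1.71 CPM, from 1 and 6 UMIs. Neither level was 2-fold lower in mdx5cv/Ccr2-/-. The subset numbered 233 of 916 and 102 of 857 cells, and whether its share bears on the genotype ratio was not tested. In the quadriceps 0 of 17 measured members were at least 2-fold apart between genotypes, where 1.29% of genes were.

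Immune-like cells had few Hox UMIs. Hoxb4 was the most frequent, at 7.27, 7.41, 5.34 and 6.33 CPM, with ratios of 1.02 (0.804 to 1.29) and 1.19 (0.811 to 1.72) between muscles. Of 3 measured members (Hoxa7, Hoxb3 and Hoxb4) 0 were at least 2-fold apart in either direction, where 2.78% of genes were higher in the diaphragm, 0.613% in the quadriceps and 3.39% in either direction. The other 4 subsets divided immune-like cells: those with at least 2 of C1qa, C1qb and C1qc, the macrophage complement genes, had Hoxb4 at 7.40, 7.63, 4.81 and 5.20 CPM, and the rest at 6.95, 7.04, 6.72 and 7.92. Cells with at least 2 of the dendritic cell genes Flt3, Cd209a and Xcr1 had 11.2, 9.32, 8.07 and 11.5 CPM, from 14, 14, 9 and 11 UMIs. The level outside was lower in each library, at 7.02, 7.25, 5.11 and 5.59 CPM. No interval was computed for this difference, and with so few UMIs it is uncertain. Subsets by B cell and T cell genes held 7 and 5 Hoxb4 UMIs.

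Among the partners of HOX proteins, Meis1 and Meis2 were 2 of 9 measured cofactors at least 2-fold higher in diaphragm FAP/fibroblast-like cells, and 0 were higher in the quadriceps, against 2.54% and 2.39% of all measured genes. Meis2 had 46.9, 129.9, 56.4 and 117 CPM. In muscle stem cell-like cells Meis2 had 2, 298, 4 and 120 UMIs, with ratios of 94.6 (26 to 785) and 78.0 (29.7 to 291). Meis1 was not higher in the diaphragm in those cells, with ratios of 0.571 (0.327 to 0.994) and 0.994 (0.481 to 1.93). Meis2 was also higher in diaphragm endothelial-like cells, with ratios of 26.9 (15.3 to 51.8) and 8.38 (5.37 to 13.4). Of 15 Polycomb and trithorax regulators 0 met the 2-fold rule in either direction in FAP/fibroblast-like cells, where 4.93% of all genes did, so the count is near the background. Kmt2a, the trithorax methyltransferase, had 97.8, 105, 97.9 and 113 CPM.

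Of 20 measured limb regulators 11 were at least 2-fold higher in quadriceps FAP/fibroblast-like cells, against 2.39% of all measured genes, and 0 in the diaphragm, against 2.54%. The other 9 met neither, and in muscle stem cell-like cells 0 of 7 were higher in the quadriceps (background 0.875%) and 1, Tbx3, in the diaphragm (0.415%). Tbx4, a hindlimb factor, had 73, 2, 44 and 4 UMIs. Pitx1, which acts upstream of Tbx4, had 32, 2, 37 and 1 UMIs. Tbx5, known for the forelimb, also stood higher in the quadriceps, at 7.40, 1.02, 5.82 and 1.28 CPM. Of 10 measured genes of diaphragm development 5 (Gata4, Gata6, Wt1, Zfpm2 and Rarb) were at least 2-fold higher in the diaphragm and 1, the retinoic acid enzyme Aldh1a2, in the quadriceps, against the same background shares. Gata4, a factor of the embryonic pleuroperitoneal folds, had 0, 13.7, 0 and 14.9 CPM. In these lists too, a gene high in 1 muscle alone passes the minimum through that muscle, so nothing is read from the shares.

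Noncoding genes within the Hox clusters were counted as well. Of 13 noncoding and flanking genes, 5 were measured in FAP/fibroblast-like cells (Hoxd3os1, Hotairm1, Hoxaas2, Hoxaas3 and Hoxb3os). All 5 were at least 2-fold higher in the diaphragm in both genotypes, against 2.54% of all measured genes. A gene high in the diaphragm alone passes the minimum through that muscle, so nothing is read from this count. In endothelial-like cells 0 of 5 measured met the 2-fold rule in either direction, where 2.64% of genes did. Hoxb3os had 0, 98, 0 and 35 UMIs in muscle stem cell-like cells. How the authors' counting treated strand and overlapping genes is not given in the sources used here, and 9 members have exons that overlap another gene's on the same strand, so these noncoding counts and those of Hoxa2, Hoxa3, Hoxa9, Hoxd3, Hoxd4, Hoxd10, Hoxd11, Hoxc5 and Hoxc10 are uncertain to that extent.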

How the data were processed

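Mononuclear cells of 4 libraries were profiled with the 10x 3′ v3.1 kit, per the labels' protocols. The values are UMI counts, not normalized, in the authors' deposited 10x matrices. Their file headers name Cell Ranger 6.1.2, and the submitters' processing notes list mm10 as the genome build. The sources used here state neither the annotation release nor the strand setting.

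Barcodes under 500 UMIs, under 300 genes or above 15% mitochondrial UMIs were left out, and 2508 doublets were removed by Scrublet score (scanpy 1.11.5) at 0.8% per 1000 deposited barcodes. Classes came from 59 markers of 8 cell types. UMIs were summed per class and library. Ratios have exact conditional binomial, shares exact binomial (Clopper-Pearson), 95% intervals (scipy 1.17.1), which take UMIs as independent. A gene was measured with at least 50 UMIs in a class, and called at 2-fold in both genotypes with 0.5 CPM added. Members with at least 50 UMIs in all were described, except 1 that is not reported here. Other genes were named from lists (the most abundant, and those called), and as the 5 largest folds in each direction. The calls and intervals were tested on simulated data.

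The members and lists were chosen with earlier results of these data known. These choices were made after values had been seen: the barcodes on which the doublet number was based, the minimum of 60 cells per library for a class to enter the counts of calls, the split by Pi16, the 5 subsets and the sets for joint detection. The interval test was first scored against folds that ignored rescaling of totals, and that scoring was corrected. Shares at 3000 UMIs were first read from 1 random draw and were replaced by their hypergeometric expectation once the draws were seen to vary. Their intervals use the expected number of cells rounded to whole cells.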

Additional observations from a re-analysis of the deposited data

Results flagged for a closer look

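A set of 6 members differed between muscles in opposite directions in 2 cell classes, in both genotypes, with intervals that excluded equal levels. The differences between classes themselves were not tested. The makeup of the endothelial-like class differed between muscles, and the Hoxb ratios below were not split by subset.

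In endothelial-like cells the mdx5cv ratio of diaphragm to quadriceps was 0.182 for Hoxb8, 0.324 for Hoxb7, 0.236 for Hoxb6, 0.582 for Hoxb5 and 0.570 for Hoxb3, whereas in FAP/fibroblast-like cells it was 3.51, 3.80, 22.9, 10.1 and 8.23. In mdx5cv/Ccr2-/- the endothelial-like ratios were 0.213, 0.284, 0.478, 0.607 and 0.643. Shox2 was at least 16.5-fold higher in diaphragm than in quadriceps muscle stem cell-like cells of mdx5cv, against a ratio of 0.0448 in FAP/fibroblast-like cells.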

How the results depend on the processing

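Of 322 values recomputed under 14 planned and 4 added alternatives, 274 stayed within the interval of the reported value (for counts, within 1.5 times), 44 moved beyond it and 4 changed direction. The added ones, chosen after seeing the data, were cells with and without a Pi16 UMI, another doublet number and 1 random draw of UMIs.

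With UMIs per cell every FAP/fibroblast-like log2 ratio shifts by −1.02 in mdx5cv and −0.27 in mdx5cv/Ccr2-/-, the difference in depth, so relative to other genes nothing changes. The ratios became 2.33 and 4.55 (anterior), 0.627, a change of direction, and 1.21 (central), 0.0249 and 0.0362 (posterior), 0.00928 for Tbx15 and 0.0221 for Shox2 in mdx5cv. Genotype ratios became 0.867 and 1.67 (central), 1.03 and 1.5 (posterior). Tendon-gated cells gave 0.822, a change of direction, 1.07 and 0.0279, mural-like 0.452 and 0.973, endothelial-like 0.434, 0.590 and, for posterior genes in mdx5cv, 0.963, a change of direction. The count higher in the diaphragm fell to 9, and to 8 with 5 CPM added. The directions of 4 members, Hoxa6, Hoxc4 and Hoxc5 among them, differed between scalings.

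With cells thinned to 3000 UMIs (1 draw) values were 4.4 (anterior, mdx5cv/Ccr2-/-), 1.20 and 1.08 (genotype, central in the diaphragm and posterior in the quadriceps), 1.14 (tendon-gated), 1.01 (stem cell-like) and 1.12, a change of direction, for central genes of mural-like cells. The gate of 4 markers gave 0.0507 (tendon-gated), 0.458 (mural-like), 1.66 and 0 (stem cell-like) and 0.512 (endothelial-like), the gate of 2 markers 0.459 and the stricter cell filter 0.0387 (both mural-like). Cells with a Pi16 UMI gave 1.31, and those without 1.54 (central), 0.0606 (posterior), 0.0474 (Tbx15) and 0.0349 (Shox2).

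Posterior shares at 1500 UMIs were 19.2%, 0.979%, 21.1% and 1.0%, and without thinning 74.5%, 4.37%, 73.2% and 6.32%. In 40 random draws the mdx5cv quadriceps share ranged from 30.3% to 37.5% (expected 34.0%), and the draw first used gave 37.5%, the highest. The cause of each change was not tested unless named. No paired analysis was possible because each group has 1 library. Mural-like and stem cell-like ratios are limited by few cells.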

Other observations

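Muscle stem cell-like cells differed between muscles in genes outside the Hox clusters as well. Pax3, the paired-box gene of migrating muscle precursors, had 4, 108, 19 and 47 UMIs (mdx5cv quadriceps, mdx5cv diaphragm, mdx5cv/Ccr2-/- quadriceps, mdx5cv/Ccr2-/- diaphragm), with ratios of diaphragm to quadriceps of 17.1 (6.51 to 64.1) and 6.43 (3.70 to 11.6). Tbx3 had 6, 82, 6 and 50 UMIs, with ratios of 8.68 (3.82 to 24.3) and 21.7 (9.28 to 61.8), whereas in FAP/fibroblast-like cells Tbx3 stood at 10.5, 2.97, 11.8 and 2.87 CPM. Nr2f2 went the other way, with 69, 22, 109 and 11 UMIs. These genes come from the lists of limb and diaphragm development, which were chosen with earlier results known.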
